A study of Mus musculus with 9 samples.

Results

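Notch signalling passes a message between touching cells. Ligands of the Jagged and Delta families on a sending cell pull on Notch receptors of the receiving cell, and the receptor is cut so that its intracellular domain enters the nucleus, where it joins the DNA-binding protein RBPJ and coactivators of the Mastermind family to switch on genes such as Hes1. The pathway is best known in lymphocytes for directing progenitors to the T cell lineage, and it also takes part in the development of innate lymphoid cells. The genes described here are 9 of the 23466 in the deposited table: the ligands Jag1, Jag2 and Dll1, the receptors Notch1 and Notch2, the nuclear factor Rbpj, its coactivator Maml2, the target gene Hes1 and Dtx1, which encodes the Notch-binding protein Deltex. They were found by symbol, and all 9 were in the table. Jag1 heads the set because an earlier analysis of these counts had found it higher after injury, so the comparison of injured with uninjured meninges is given for the 9 genes as a description, and nothing is read from a call in it.

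The RNA came from ILC2s (group 2 innate lymphoid cells), lymphocytes that live in tissues and release type 2 cytokines. Per the labels they were sorted by exclusion of DAPI and lineage markers and by CD45, ST2 and Thy1 from wild-type C57/Bl6 mice aged 10 weeks. One group came from brain meninges taken 24 h after the spinal cord was contused at 80 kdyn, one from brain meninges of uninjured mice and one from lung of uninjured mice, with 3 libraries in each. No group was labelled as sham-operated, so the contusion and the surgery around it cannot be told apart. Each group pooled 5 mice, and the labels do not say whether its 3 libraries came from separate pools, so the p-values measure only how these libraries spread, and that spread may be technical.

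The 9 libraries held 13407277 to 18253462 counts, and 3 counts equalled 0.163 to 0.239 CPM (a gene's counts relative to the library's total, with totals adjusted by edgeR's trimmed means). A gene with no count may lie anywhere below this floor, which covers counting error only. The defining ILC2 genes were present in each library, with 1852 to 2694 CPM of Il1rl1 (ST2) and 495 to 646 CPM of Gata3, and the 12 ILC2 markers summed to 8620 to 11315 CPM in injured meninges and 7860 to 8427 CPM in uninjured meninges. Thy1 stood lower in injured meninges without overlap, at 51.4 to 92.5 CPM against 167 to 279 CPM in uninjured meninges. Rora (758 to 1240 against 474 to 507 CPM), Il7r (1671 to 2368 against 1084 to 1531 CPM) and Il2ra (1630 to 1798 against 1122 to 1552 CPM) stood higher in injured meninges without overlap. Injured meninges 2 stood apart, with the fewest detected genes (13465, against 15761 to 18452 elsewhere). Its median Spearman correlation was 0.797 with its own group and 0.773 with the other groups. Values without injured meninges 2 are therefore given beside the results that rest on it. Injured meninges 1 and 3 correlated as closely with the other groups (0.825 and 0.827) as with their own (0.825 and 0.827). In bulk libraries such as these, a change in the number of cells that express a gene and a change in RNA per cell cannot be told apart.

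Promoters are shown for Jag1, which heads the set, and for Rbpj, which had the smallest edgeR p of the set between the uninjured tissues. They are from RefSeq (build GRCm38.p6), 250 bases before to 50 bases after the annotated start, on the strand of the gene. Capitals mark TGACG, the shorter form of the cyclic AMP response element, on either strand, and the palindromic E-box CANNTG. The first is at chr2:137116471-137116770 on the minus strand and the second, the more upstream of 2 Rbpj starts, at chr5:53590096-53590395 on the plus strand.
Jag1: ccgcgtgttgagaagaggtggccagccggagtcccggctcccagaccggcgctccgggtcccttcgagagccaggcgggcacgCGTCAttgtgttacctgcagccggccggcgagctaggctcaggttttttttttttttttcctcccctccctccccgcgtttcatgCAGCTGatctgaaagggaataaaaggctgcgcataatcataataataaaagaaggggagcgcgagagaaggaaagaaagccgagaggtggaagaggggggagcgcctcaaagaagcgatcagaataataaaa
Rbpj: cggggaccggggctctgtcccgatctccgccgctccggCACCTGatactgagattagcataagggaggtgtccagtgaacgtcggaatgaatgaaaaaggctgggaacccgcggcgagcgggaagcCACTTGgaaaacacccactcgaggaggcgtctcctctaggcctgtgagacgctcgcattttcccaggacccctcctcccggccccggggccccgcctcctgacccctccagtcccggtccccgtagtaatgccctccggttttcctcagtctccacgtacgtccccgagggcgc
In all 13 motifs were searched on both strands, and the 2 in capitals were picked after their matches in these windows had been seen, so they are no evidence of anything particular to Jag1 or Rbpj. TGACG, once in the Jag1 window, was in 20.8% of 32851 promoter windows of the same length, and CANNTG, once in the Jag1 and at 2 places in the Rbpj window, in 72.3%. An NF-kB-type motif, GGG and CC with 5 bases between them, also occurred once in each of these windows and was in 50.8% of all windows. The RBPJ recognition letters GTGGGAA or ATGGGAA, which share 6 letters, were in 0 of the 11 windows of the 8 genes with an entry (Hes1 had none), against 11.2% of all windows. The rest, absent from both printed windows, were in the following shares of all windows: CACNAG 42.5%, TGANTCA 7.81%, TGACGTCA (which contains TGACG) 1.79%, GGG and TTTCC with 2 bases between them (a narrower form of the NF-kB-type motif) 1.63%, AGATAA 11.2%, GGGCGG 35.7%, TATAAA 13.6% and CCAAT 37.4%. These are matches of letters, not binding sites.

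Among the ligands, Jag1 was most abundant in injured meninges. It had 101, 229 and 241 CPM in the 3 injured meningeal libraries, 21.8, 24.5 and 2.62 CPM in the uninjured meningeal libraries and 19.4, 29.5 and 28.7 CPM in the lung libraries. The lowest injured library was above each library of the other groups, and uninjured meninges 3 was far below the other libraries of its group. The injured mean of 191 ± 77.6 CPM was 11.7 times the uninjured meningeal mean of 16.3 ± 11.9 CPM (SD, n = 3 each), and the log2 fold change was 3.55 ± 0.63 (SE). It was 3.39 ± 0.69 without injured meninges 2, and between 3.04 and 3.96 over the 9 fits that left out 1 library. The lower end of that range came without uninjured meninges 3.

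Per kilobase of exon, which allows genes to be compared, Jag1 in injured meninges averaged 32.7 ± 13.3 CPM per kb. It stood above 94.1% of the 15067 genes that passed the filter on low counts and had an exon length. In uninjured meninges it averaged 2.80 ± 2.05 CPM per kb, above 42.5% of these genes, and in lung 4.44 ± 0.97 CPM per kb, above 54.9%. Its rank among the genes that passed the filter was thus near the middle in both uninjured tissues and near the top in injured meninges. In injured meninges 3 the Jag1 level was 0.863 times that of Notch2 per kb, in injured meninges 2 it was 0.710 times and in injured meninges 1 it was 0.356 times. In uninjured meninges the same ratio was at most 0.0865, and in lung at most 0.111.

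The other ligands were scarce, with at most 2.72 CPM of Jag2, 4.05 CPM of Dll1 and 8.60 CPM of Dll4 in a library. Jag2, the second Jagged ligand, had 0.06, 0 and 0.56 CPM in injured meninges, 2.72, 0 and 0.27 CPM in uninjured meninges and 0, 0 and 0.13 CPM in lung, and did not pass the filter on low counts. Its one value above the others came from uninjured meninges 1, and the groups overlapped. Dll1, a Delta-family ligand, had 3.82, 0 and 0.19 CPM in injured meninges, 0 in the 3 uninjured meningeal libraries and 0.98, 4.05 and 1.73 CPM in lung. It was detected in each lung library and mainly in injured meninges 1 among the meningeal ones.

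Against the limit of 3 counts per library in uninjured meninges, the lung mean of Dll1 was at least 12.1-fold higher, or at least 7.29-fold without lung 2. These bounds take the lung mean as measured, and lung 1 held 16 counts. No test is given, since Dll1 passed the filter on low counts only through libraries outside uninjured meninges. Lung 2 also held 83 counts of A930024N18Rik, a non-coding gene that overlaps Dll1 on the opposite strand, against 55 of Dll1. The sources used here do not say whether strand was used in counting, and without it reads of these genes cannot be told apart. Over Jag1, Jag2, Dll1 and Dll4, Jag1 gave 94.9% to 100% of the summed level per kb in injured meninges, 78.1% to 100% in uninjured meninges and 57.4% to 84.1% in lung. The remainder in lung was Dll1 in lung 2 and largely Dll4, a ligand typical of endothelium, in lung 1.

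**Figure D1:**
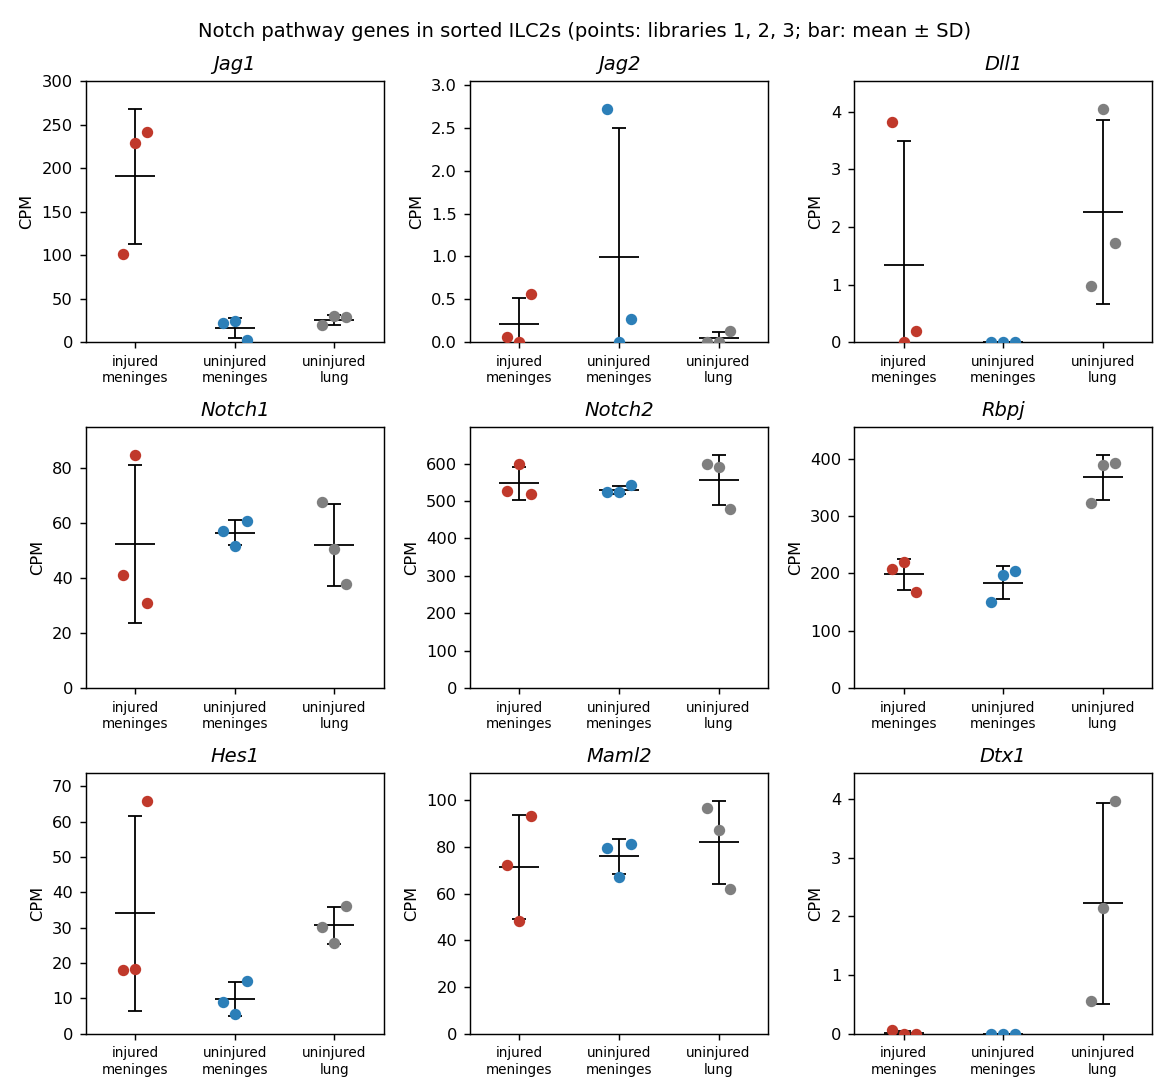
CPM of the 9 Notch pathway genes in each library (points), with the mean and SD of each group (bars), on linear axes that start at 0. Jag1 in the 3 injured meningeal libraries sits between 101 and 241 CPM, above the other 6 libraries, Rbpj is highest in lung, and Notch2 spans 479 to 599 CPM.

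**Figure D2:**
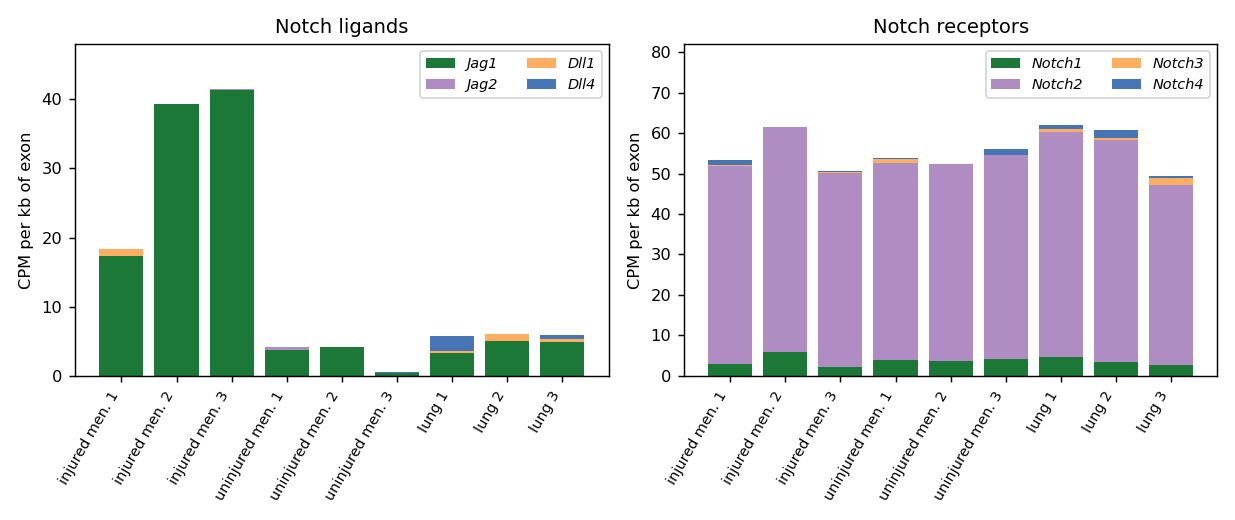
Level per kilobase of exon of the Notch ligands (left) and receptors (right) in each library, stacked by gene. Jag1 makes up the ligand bars of injured meninges, and Notch2 makes up at least 89.5% of each receptor bar.

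Neither receptor separated the groups. Notch2 had 527, 598 and 517 CPM in injured meninges, 523, 525 and 542 CPM in uninjured meninges and 599, 591 and 479 CPM in lung. The 3 groups overlapped, and its coefficient of variation over the 9 libraries was 7.75%, against 121% for Jag1. The log2 fold change was 0.05 ± 0.18 for injured over uninjured meninges. For uninjured meninges over lung it was -0.07 ± 0.18 (SE; edgeR adjusted p = 0.994). Relative to the other genes that passed the filter on low counts Notch2 was abundant. Per kb it was above 97.3% of them in injured meninges, 97.5% in uninjured meninges and 97.3% in lung. Gm42820, a gene that overlaps 541 bases of Notch2 exons on the same strand, had 83 to 412 counts in a library. Notch2 had 7471 to 9752. Strand cannot separate reads in that overlap.

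Notch1, the receptor that drives T cell commitment, was scarcer. It had 41.2, 85.0 and 30.8 CPM in injured meninges, 57.3, 51.7 and 60.7 CPM in uninjured meninges and 67.7, 50.5 and 38.0 CPM in lung. The injured libraries spanned the values of both other groups, with the high value in injured meninges 2. The log2 fold change for injury was -0.11 ± 0.42, and -0.65 ± 0.41 without that library. Uninjured meninges over lung gave 0.12 ± 0.42 (SE; edgeR adjusted p = 0.994). Non-coding genes that overlap Notch1 on the other strand had at most 4 counts in a library.

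Per kb, Notch2 exceeded Notch1 by 9.29 to 22.2 times in injured meninges, 11.8 to 13.4 times in uninjured meninges and 11.7 to 16.6 times in lung. Notch3 and Notch4, receptors best known from mural and endothelial cells, brought the total to 4 receptors. Over these, Notch2 made up 90.3% to 94.7% of the summed level per kb in injured meninges, 89.8% to 92.9% in uninjured meninges and 89.5% to 90.1% in lung. Notch3 reached 15.4 CPM in lung 3 and Notch4 15.5 CPM in lung 2, and in injured meninges 2 they had 0.08 and 0 CPM.

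Rbpj, which encodes the protein that carries the cut receptor onto DNA, was higher in each lung library than in any meningeal one. It had 208, 219 and 167 CPM in injured meninges, 150, 197 and 204 CPM in uninjured meninges and 322, 389 and 392.3 CPM in lung. The meningeal groups overlapped, and both lay below the lowest lung library. Uninjured meninges averaged 184 ± 29.3 CPM and lung 368 ± 39.3 CPM (SD, n = 3 each). The log2 fold change of -1.001 ± 0.22 (SE) did not pass the threshold (edgeR adjusted p = 0.0553). Over the 16 alternatives the log2 fold change ran between -1.09 and -0.88 and the adjusted p between 0.00221 and 0.256.

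The Rbpj difference passed in 8 of these alternatives. Among them were DESeq2 (adjusted p = 0.00221) and edgeR on the 6 libraries compared (0.021). The replicate number as a block gave 0.0455, and leaving out injured meninges 1, 2 or 3 gave 0.0412, 0.0292 and 0.0461. It did not pass without any 1 of the uninjured meningeal libraries (0.226, 0.179 and 0.128) or of the lung libraries (0.1, 0.193 and 0.256). For injury the Rbpj log2 fold change was 0.11 ± 0.22. Rbpj-ps3, a processed copy of Rbpj, had 13 to 36 counts in a library, against 2663 to 6124 for Rbpj, and reads that the copy shares with the gene may be split between them.

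Maml2, the Mastermind coactivator, overlapped between the 3 groups, with 72.2, 48.4 and 93.0 CPM in injured meninges, 79.3, 67.2 and 81.1 CPM in uninjured meninges and 96.6, 87.2 and 62.1 CPM in lung. Its log2 fold change was -0.09 ± 0.33 for injury and -0.11 ± 0.33 for uninjured meninges over lung (SE; edgeR adjusted p = 0.994 between the tissues).

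Hes1, the transcriptional repressor that is the classical Notch target, was lowest in uninjured meninges. It had 17.9, 18.2 and 66.0 CPM in injured meninges, 9.09, 5.48 and 15.0 CPM in uninjured meninges and 30.2, 25.6 and 36.1 CPM in lung. The lowest injured library was above the highest uninjured meningeal one, and injured meninges 3 held the highest value of all. The log2 fold change for injury was 1.79 ± 0.65, and 0.87 ± 0.66 without injured meninges 3. Without injured meninges 2 it was 2.09 ± 0.62. For uninjured meninges over lung it was -1.63 ± 0.65 (SE; edgeR adjusted p = 0.458), which did not pass, with each uninjured meningeal library below each lung library.

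Dtx1 had 0.06, 0 and 0 CPM in injured meninges, 0 in the 3 uninjured meningeal libraries and 0.55, 2.14 and 3.97 CPM in lung. It was detected in each lung library and in 1 meningeal library with a single count, and it did not pass the filter on low counts. Against the limit of 3 counts in uninjured meninges, its lung mean was at least 11.9-fold higher, or at least 7.22-fold without lung 3. These bounds take the lung mean as measured, and lung 1 held only 9 counts.

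**Figure D3:**
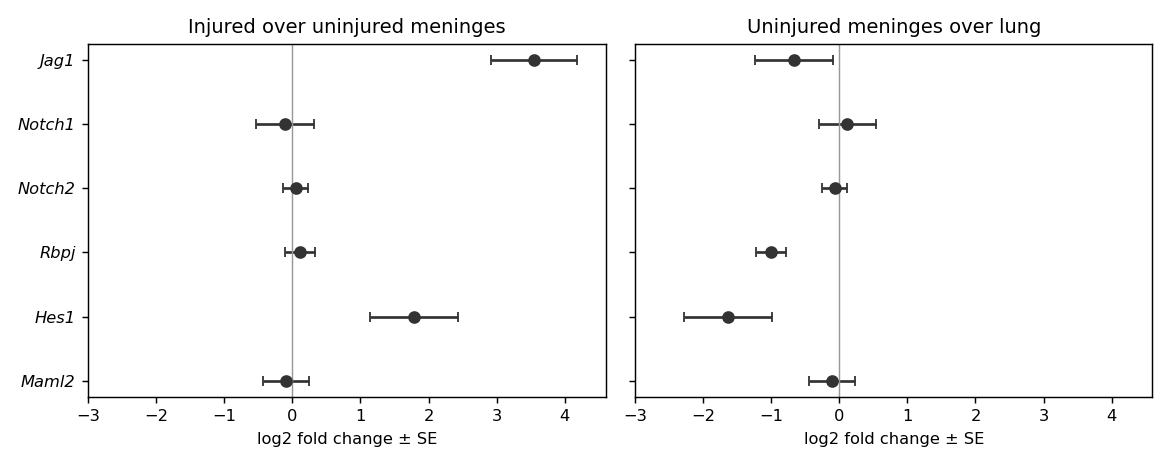
Log2 fold change with its standard error for the 6 genes that passed the filter and were above 0 in each group, for injured over uninjured meninges (left) and uninjured meninges over lung (right). Jag1 lies at 3.55 on the left and Rbpj at -1.001 on the right, while Notch1, Notch2 and Maml2 lie near 0 in both panels.

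Of the 9 genes, 7 passed the filter on low counts, Dll1 only through libraries outside uninjured meninges. For injured against uninjured meninges 1 of the 7, Jag1, was called higher at a Benjamini-Hochberg adjusted p under 0.05. Of 15117 genes 0.192% were called, 0.132% higher and 0.0595% lower. Since Jag1 was chosen on this contrast, nothing is read from that count. The count was 0 with no filter, with the 6 libraries compared alone, and without injured meninges 2, injured meninges 3, uninjured meninges 1, uninjured meninges 2 or lung 2. Jag1 and Hes1 did not overlap between the meningeal groups and were higher after injury. Of all genes 12.1% did not overlap, 5.35% with the injured libraries higher and 6.79% with them lower. For uninjured meninges against lung 0 of the 7 were called by edgeR, Rbpj and Hes1 had an unadjusted p under 0.05 (7.98% of all genes did) and DESeq2 called 1, Rbpj. Dll1 is left out of this and the next count. Of all genes edgeR called 0.635%, 0.0397% higher and 0.595% lower in uninjured meninges. Rbpj and Hes1 lay lower in uninjured meninges than in lung without overlap. Of all genes 18.2% did not overlap, 7.63% with uninjured meninges higher and 10.6% with it lower, and Jag1 and Rbpj did not overlap between injured meninges and lung, beside 17.8%. Both comparisons use the same 3 uninjured meningeal libraries.

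The order of the groups differed between the genes. For Jag1 it was injured meninges, lung and uninjured meninges, of which the lower 2 overlapped (log2 fold change of uninjured meninges over lung -0.66 ± 0.57, edgeR adjusted p = 0.927). Without uninjured meninges 3 it was -0.16. For Rbpj it was lung, injured meninges and uninjured meninges, of which the meningeal groups overlapped. For Hes1 the means of injured meninges and lung, 34.0 ± 27.7 and 30.6 ± 5.26 CPM, were within their spread of each other.

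Pathway genes outside the 9 were taken from a list of 78, of which 71 were in the table and 63 passed the filter. For injured against uninjured meninges edgeR called 0 of the 63 and 9 had an unadjusted p under 0.05 (8.94% of all genes), while DESeq2 called 3 (1.67% of all genes). Log2 fold changes were above 0 for 31 genes and below 0 for 32, and their median was -0.04, beside -0.005 over all genes tested. For uninjured meninges against lung edgeR called 0 and 8 had an unadjusted p under 0.05 (7.98% of all genes), while DESeq2 called 2 (2.77% of all genes). Again 31 were above and 32 below 0, with a median of -0.0003, beside 0.002 over all genes.

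Among enzymes that act on ligands or receptors, Mib1, the ubiquitin ligase that lets ligand-bearing cells send the signal, had 304, 505 and 586 CPM in injured meninges and 278, 191 and 301 CPM in uninjured meninges. The injured libraries lay above the uninjured ones, by 0.86 ± 0.28 on the log2 scale (SE; edgeR adjusted p = 0.407). This difference did not pass.

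The smallest p between the tissues in this list belonged to Neurl3 and Furin. Furin, the protease that matures the receptor, had 61.1, 70.5 and 201 CPM in uninjured meninges and 187, 287 and 210 CPM in lung (edgeR adjusted p = 0.468). Neurl3, a ligase of the Neuralized family, had 180, 215 and 333.4 CPM in uninjured meninges and 298, 546 and 497 CPM in lung (edgeR adjusted p = 0.334). In both genes uninjured meninges 3 overlapped the lung libraries. The list of 20 such genes, 18 of them tested, had a median log2 fold change of -0.13 for injury and -0.19 for uninjured meninges over lung.

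Among nuclear cofactors, Tle2, a Groucho-type corepressor, had 14.9, 38.7 and 7.21 CPM in injured meninges, 2.72, 2.13 and 1.14 CPM in uninjured meninges and 7.87, 7.66 and 8.78 CPM in lung. Uninjured meninges was the lowest group without overlap. The log2 fold change was 3.34 ± 0.96 for injury (SE; edgeR adjusted p = 0.298, DESeq2 0.00564). Without injured meninges 2 it was 2.47 ± 1.06 (edgeR adjusted p = 0.595, DESeq2 0.172). For uninjured meninges over lung it was -2.01 ± 0.91 (edgeR adjusted p = 0.585). Spen, a corepressor that binds RBPJ, had 93.2, 75.8 and 64.7 CPM in injured meninges and 120, 148 and 186 CPM in uninjured meninges, also without overlap (-0.96 ± 0.28, edgeR adjusted p = 0.298).

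Ncor1, a corepressor of RBPJ and of nuclear receptors, had 873, 934 and 1036 CPM in uninjured meninges and 1047, 1258 and 1279 CPM in lung (edgeR adjusted p = 0.639). Of the regulators, Dtx4, another Deltex, had 52.5, 54.0 and 49.1 CPM in injured meninges and 21.9, 6.71 and 26.5 CPM in uninjured meninges (1.498 ± 0.68, edgeR adjusted p = 0.548). Nle1, a Notchless protein, had 2.63, 0 and 0.31 CPM in injured and 6.58, 5.55 and 20.0 CPM in uninjured meninges (edgeR adjusted p = 0.517). Dtx3l had 93.8, 104 and 94.1 CPM in uninjured meninges and 57.7, 36.4 and 74.3 CPM in lung (edgeR adjusted p = 0.572), and Numb, an inhibitor of Notch, had 75.9, 65.9 and 48.5 CPM in uninjured meninges and 92.4, 94.5 and 79.5 CPM in lung (0.857). None of these 5 passed.

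The target genes did not move as one. Hey1, a relative of Hes1, had 6.51, 147 and 1.504 CPM in injured meninges, 0.33, 0 and 0 CPM in uninjured meninges and 31.0, 4.27 and 44.6 CPM in lung. Most of the injured level came from injured meninges 2. By edgeR the gene did not pass for injury (edgeR adjusted p = 0.192, DESeq2 0.00151; without injured meninges 2, edgeR 0.254 and DESeq2 0.00838) or for uninjured meninges over lung (edgeR adjusted p = 0.149, DESeq2 0.00431). The edgeR comparison of the tissues passed without injured meninges 2 (0.00907), without injured meninges 3 (0.0401) and with the 6 libraries alone (0.0178). Heyl, of the same family, had 0.18, 0 and 0 CPM in injured meninges and 11.97, 3.36 and 0 CPM in uninjured meninges (edgeR adjusted p = 0.463, DESeq2 0.0454, and 0.0754 without injured meninges 2). Cdkn1a, a cell-cycle inhibitor reported as a Notch target, had 6.75, 10.6 and 2.08 CPM in uninjured meninges and 69.9, 74.2 and 120 CPM in lung (-3.77 ± 0.91, edgeR adjusted p = 0.0894, 0.00163 without injured meninges 2, 0.00588 with the 6 libraries alone, DESeq2 0.000243). Nrarp, a feedback inhibitor that Notch induces, was detected in 1 library, at 0.65 CPM in uninjured meninges 1.

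**Figure D4:**
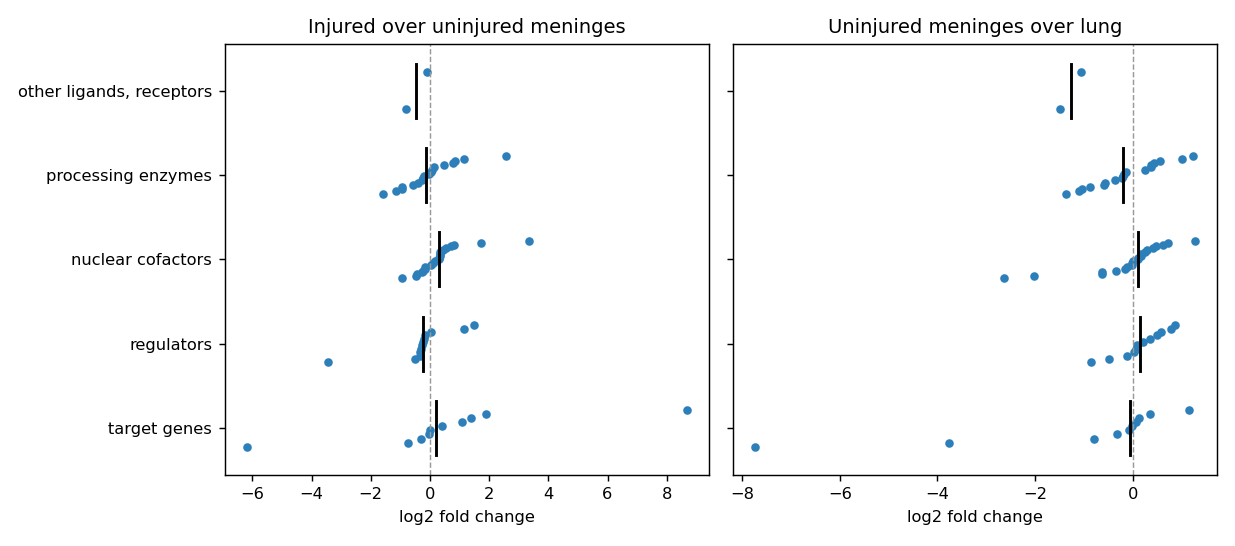
Log2 fold changes of the Notch pathway genes outside the 9, by role, for injured over uninjured meninges (left) and uninjured meninges over lung (right). Each point is a gene, black lines are list medians and the dashed line is the median of all genes tested. List medians lie on both sides of 0, and no gene shown passed the edgeR test, the far points of Hey1 and Heyl being fitted against libraries at or near 0 and no measure of size.

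Over the 9 libraries, the 5 genes whose log2 CPM was most like that of Jag1 among 7282 genes were Tgfbr2 (Pearson r = 0.957), Dip2b (0.947), Rbms2 (0.943), Emb (0.942) and Tmtc2 (0.940). The libraries share depth and group, so these values are a description. Tmtc2 came closest to the size of the Jag1 difference, with 120, 73.7 and 106 CPM in injured meninges, 11.4, 21.9 and 2.55 CPM in uninjured meninges and 21.8, 15.9 and 34.4 CPM in lung. Like Jag1, each of the 5 was lowest in uninjured meninges 3. Since they were picked for likeness to Jag1 over these same libraries, that is no separate observation.

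Markers of other cell types were set beside Jag1. The summed level of 10 endothelial markers was 59.0 to 165 CPM in injured meninges, 53.9 to 233 CPM in uninjured meninges and 248 to 683 CPM in lung, so the meningeal groups overlapped. Fibroblast and mural markers summed to 15.2 to 109 CPM in injured and 28.2 to 212 CPM in uninjured meninges. Of these 10 markers only Pdgfra and Lum were at 0 in all 3 injured libraries, and Myh11 had at least 7.59 CPM in each of them. Sums of monocyte and macrophage markers (66.4 to 172 against 34.5 to 103 CPM) and of B cell markers (26.4 to 113 against 48.01 to 80.0 CPM) overlapped as well, as did those of dendritic, T cell, neutrophil and neural markers. The part of these cells in the Jag1 level was not tested.

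Of the 8 mast cell and basophil markers, Kit, the stem cell factor receptor, was higher in injured meninges without overlap, at 381, 405 and 550 CPM against 209, 306 and 230 CPM in uninjured meninges. In lung it stood at 618, 854 and 692 CPM. The other 7 summed to 0.752 to 3.18 CPM in injured meninges and 2.07 to 22.5 CPM in uninjured meninges. Fcer1a, Mcpt4, Cma1 and Tpsb2 were at 0 in the injured libraries and at most 0.76 CPM in the uninjured meningeal ones. The part of mast cells and basophils in the Jag1 level was not tested.

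For Rbpj, Hes1, Dll1 and Dtx1, the lung libraries also held 699 to 2172 CPM of 9 lung epithelial markers, against 4.03 to 11.6 CPM in uninjured meninges, and the endothelial sums given above. The lung fibroblast and mural sums were 132 to 352 CPM. Monocyte and macrophage markers summed to 369, 34.4 and 492 CPM in lung 1, 2 and 3. Within lung, Rbpj, Dll1 and Dtx1 were lowest in lung 1 and Hes1 in lung 2. The epithelial and endothelial sums were highest in lung 1 and lowest in lung 2. These orders over 3 libraries are a description, and nothing is read from them. The part of epithelial, endothelial, fibroblast, mural, monocyte and macrophage cells in the difference between the tissues was not tested.

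**Figure D5:**
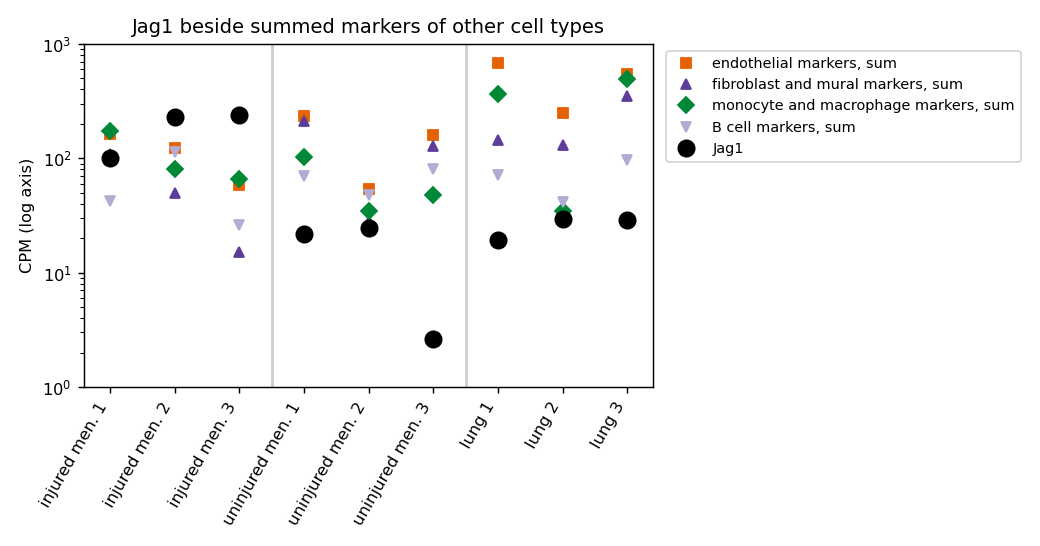
Jag1 (black circles) and the summed markers of 4 other cell types in each library, in CPM on a log axis. Jag1 is at 101 CPM or more in injured meninges and below 30 CPM elsewhere, while the marker sums of the meningeal groups overlap.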

How the data were processed

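RNA of sorted ILC2s was measured in 9 libraries. The deposited values are raw counts per gene. The submitters' processing notes name the tools FastQC, STAR and HTSeq, without versions, and build mm9. Strand use in counting is not stated. Symbols came from the table or, where empty, from GENCODE M21 by identifier. The test was that of edgeR 4.0.16 (R 4.3.3; filterByExpr by group, trimmed mean of M values, robust quasi-likelihood, 1 fit over 9 libraries), with Benjamini-Hochberg adjustment over 15117 genes. The procedure was tested on simulated data. Standard errors were derived from each log2 fold change and its F statistic. Exon lengths came from GENCODE M21 (GRCm38), found for 99.7% of genes tested, and may differ from those the authors used. DESeq2 1.42.0, other scalings, no filter, the 6 libraries compared, a replicate block and leaving out each library were alternatives. No 2 libraries of the same group agreed within sampling noise (lowest chi-square per degree of freedom 62.8). The genes, lists and tests were chosen with earlier results of these data known. Beside the 9 genes, the text names the 2 pathway genes of smallest p per list and comparison, any called, and the 5 most like Jag1 (mean of at least 10 CPM, prior count 2). One gene that this rule names is not reported here. Others are named where a sentence needs them, after their values were seen, as were the 2 marked of 13 promoter motifs searched. Kyat1, put among the cofactors in error, was taken off that list after its values had been computed.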

Additional observations from a re-analysis of the deposited data

How the results depend on the processing

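The Jag1 log2 fold change for injury stayed positive in the 16 alternatives, between 3.04 and 3.96. The count of the 9 genes called for injury was 1, and 0 with no filter or with the 6 libraries compared alone, and 0 to 1 with 1 library left out. For uninjured meninges against lung it was 0, and 1 (Rbpj) with DESeq2 (-1.03), size factors of the DESeq2 type in edgeR (-1.03), no filter (-1.02), the 6 libraries alone (-1.03) and the replicate block (-1.004), and 0 to 1 with 1 library left out (Rbpj -1.09 to -0.88). Other pathway genes called numbered 0, and 3 with DESeq2 for injury. Between the tissues they numbered 0, and 2 with DESeq2 or with the 6 libraries alone, and 0 to 2 with 1 library left out. DESeq2 without injured meninges 2, an alternative chosen after seeing the data, called 1 of them for injury and 3 between the tissues. Kyat1 (Ccbl1 in the table), dropped from the cofactors, was called in neither comparison (edgeR adjusted p = 0.979 for injury and 0.994 between the tissues), so its removal changed no count of calls. All genes called for injury numbered 29, and 252 (131 higher) with DESeq2, 78 with no filter, 12 with the 6 libraries alone and 18 to 27 with 1 library left out. Between the tissues they numbered 96, and 419, 193 and 226 in the same settings and 51 to 196. The causes were not tested. Dll1 in injury rests on injured meninges 1 (fitted log2 fold change 7.39, and 3.67 without it), and no fold is drawn from it. Replicate numbers of the labels showed no clear pairing of the libraries. Deviations of same-numbered libraries correlated at -0.04 to 0.10 and those of other libraries at -0.13 to 0.10, and 7 of 18 comparisons were best with their own number. With 3 libraries in each group this check cannot exclude a pairing. With the replicate block 43 genes were called for injury and 136 between the tissues. The common biological coefficient of variation of 0.906 and a median standard error of 0.94 (log2) limit what could be called among scarce genes.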
